A study of Mus musculus with 12 samples.

Results

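Galectins and annexins were followed as 9 genes, Lgals1, Lgals3, Lgals8, Lgals9, Anxa1, Anxa2, Anxa3, Anxa5 and Anxa6, taken by their symbols from a table of 54532 mouse genes. All 9 were among the 14014 genes that reached 1 FPKM (fragments per kilobase of gene model, scaled by a library size that differed from the read total) in at least 2 libraries and were tested. The 12 libraries were RNA-seq of cultured adult astrocytes from cortex and hippocampus of C57BL/6 mice, 2 libraries in each of 6 groups. The Ogt cKO group and its control came from mice 4 months old, and the label gives both groups the same genotype, Glast-CreERT2::Ogtfloxp/Y. Only their descriptions name one of them the knockout and the other its control. The line carries a floxed allele of Ogt, the gene of the O-GlcNAc transferase, and a tamoxifen-inducible Cre driven from the Glast promoter of astrocytes and their precursors; no induction is described. The AD model group carried the genotype named 5X APP and was set against wild-type mice, with an age of 6 months in the labels of both groups but 5 months in the text of the series. Aβ-treated astrocytes from wild-type mice 2 months old received Aβ 1-42 at 20 μM for 72 hours, except that the label of 1 library gives 73 hours, and were set against untreated astrocytes of the same age and genotype. Cells were dissociated with trypsin and papain, no sorting step is described, and the labels leave it unsaid whether 2 libraries of 1 group stem from different mice or wells, so p-values measure the spread between libraries only.

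Galectins are lectins that bind beta-galactosides, above all N-acetyllactosamine on branched N-glycans; they act outside the cell by cross-linking glycoproteins and inside it by binding glycans exposed on damaged lysosomes. Galectin-1 (Lgals1) is made by reactive astrocytes and by cells of the vessel wall, and galectin-3 (Lgals3) is a well-known gene of activated microglia and macrophages. Annexins are calcium-dependent binders of acidic phospholipids that work in membrane repair, exocytosis and organisation of the cell cortex. Annexin A1 (Anxa1) is also a ligand of formyl peptide receptors, and annexin A2 (Anxa2) forms a heterotetramer with S100A10 that binds plasminogen and its activator.

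The genes lie on 8 chromosomes of the mm10 build, as the deposited table places them. Lgals1 is at chr15:78926725-78930465, Lgals3 at chr14:47367751-47386160, Lgals8 at chr13:12439415-12464944 and Lgals9 at chr11:78962974-78984946. Anxa1 is at chr19:20373428-20390944, Anxa2 at chr9:69453620-69491795, Anxa3 at chr5:96793339-96845966, Anxa5 at chr3:36448923-36475894 and Anxa6 at chr11:54979108-55033445. All 9 are annotated as protein-coding. Lgals8 overlaps Heatr1 on the opposite strand, and the sources used here do not state whether reads were counted by strand, so the Lgals8 values may hold reads of Heatr1, which reached at most 7.50 FPKM. The Lgals1 pseudogenes stayed at or under 0.165 FPKM.

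Promoters are shown for 3 genes that differed in how their RNA moved: Lgals9, which rose in the AD model and Aβ-treated groups, and Anxa1 and Anxa2, which rose in the Ogt cKO group and fell in the Aβ-treated group. They were chosen after their values and motif matches were seen. RefSeq sequence of build GRCm38.p6, from 250 bases before to 50 bases after the start site, was at hand for 6 of the 9 genes, namely these 3 with Lgals3, Lgals8 and Anxa5. Capitals mark the matches to the motifs searched on both strands, and the sequences run 5′ to 3′ on the strand of the gene, which is the minus strand for Lgals9 (chr11:78984875-78985174) and Anxa1 (chr19:20390622-20390921) and the plus strand for Anxa2 (chr9:69453433-69453732).
Lgals9: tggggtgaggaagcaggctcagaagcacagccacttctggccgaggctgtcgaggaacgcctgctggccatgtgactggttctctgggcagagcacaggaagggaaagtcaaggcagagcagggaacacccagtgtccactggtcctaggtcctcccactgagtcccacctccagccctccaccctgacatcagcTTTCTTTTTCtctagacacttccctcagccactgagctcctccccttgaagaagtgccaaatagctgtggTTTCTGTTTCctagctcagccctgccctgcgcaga
Anxa1: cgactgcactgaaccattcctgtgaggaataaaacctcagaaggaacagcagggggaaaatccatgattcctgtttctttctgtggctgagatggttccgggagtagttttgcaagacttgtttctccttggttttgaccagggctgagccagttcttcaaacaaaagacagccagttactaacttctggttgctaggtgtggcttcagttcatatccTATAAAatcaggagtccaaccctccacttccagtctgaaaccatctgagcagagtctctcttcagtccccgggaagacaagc
Anxa2: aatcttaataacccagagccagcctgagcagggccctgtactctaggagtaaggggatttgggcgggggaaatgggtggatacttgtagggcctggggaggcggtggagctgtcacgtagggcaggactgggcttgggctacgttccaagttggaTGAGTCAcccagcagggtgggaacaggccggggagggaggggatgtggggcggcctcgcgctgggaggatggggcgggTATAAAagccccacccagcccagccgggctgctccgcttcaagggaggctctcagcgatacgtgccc
Of the 5 motifs, AP-1 was searched as TGANTCA and the STAT site named GAS as TTCNNNGAA. The E-box was searched as CACGTG and the TATA box as TATAAA. The interferon-stimulated response element, ISRE, was searched as a pair of GAAA blocks with any 2 bases between them. No one of these overlapped another in the promoters printed. Lgals9 held an ISRE match at bases -55 to -46 from the start site and another at 15 to 24, both on the opposite strand. Of 32851 promoters of this length, 3.44% held that motif. Anxa1 held a TATA box at -32 to -27, a motif found in 13.6% of promoters. Anxa2 held a TATA box at -17 to -12 and an AP-1 match at -95 to -89, and 7.81% of promoters held an AP-1 match. Of the motifs without a match in the 6 promoters, GAS was in 8.3% of all promoters and the E-box in 7.15%. None of the 5 motifs had a match in the windows of Lgals3, Lgals8 or Anxa5. The RefSeq start sites all lie inside the deposited gene model. They are 22 bases from its outer start for Lgals9, 273 for Anxa1, 63 for Anxa2 and 7 for Anxa5. The whole Anxa1 window, TATA box included, thus lies within that model, as does the TATA box of Anxa2. For Lgals3 and Lgals8 the start sites lie 6109 and 3206 bases inside the model, so those windows also lie wholly within it.

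Each library held between 16418852 and 18705309 reads assigned to genes, and each of the 9 genes had at least 481 reads in every library. Counting error is thus small beside the group differences that were called. It need not be small beside the closest replicate pairs, such as Lgals8 at 14.1 and 14.3 FPKM in Ogt cKO libraries. Replicates correlated at r = 0.979 to 0.995 across genes, lowest in the AD model and AD control pairs. Ogt RNA was 11.04 and 12.03 FPKM in Ogt cKO libraries, against 20.8 and 24.7 FPKM in cKO control libraries. It fell by 0.92 on the log2 scale, with a standard error (SE) of 0.30 and limma adjusted p = 0.038; when any single library of that comparison was left out, or the filter on low values dropped, adjusted p was 0.085 to 0.17. Ogt was also at 12.4 and 10.6 FPKM in Aβ-treated libraries and at 7.85 and 10.4 FPKM in Aβ control libraries, both wild type, so the Ogt cKO level lay below its own controls but not below all wild-type libraries. The astrocyte marker Gfap was present in every library, at 29.1 to 298 FPKM, and Aqp4 at 1.47 to 26.4 FPKM. Marker RNA of other cell types was present too: the C1q chain C1qa was at 161 FPKM or more, smooth muscle actin Acta2 at 171 FPKM or more and the neuronal tubulin Tubb3 at 40.6 to 177 FPKM across the 12 libraries. Of the 9 neuronal markers 3 were tested. The sum over the whole list was 44.5 to 186 FPKM, while the mature neuronal genes Snap25 and Rbfox3 were at or under 0.0577 FPKM. Sums of marker lists given below likewise cover all listed genes, tested or not. In these bulk samples, more cells of a type and more RNA per cell cannot be told apart.

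Across the 6 groups the 9 genes showed a pair of patterns, given here as levels. Mouse age and genotype differ between the experiments, so their parts in differences across experiments cannot be told apart. Lgals1 averaged 2910 ± 114 FPKM in Ogt cKO and 311 ± 141 in cKO control libraries, 566 ± 370 in AD model and 1221 ± 874 in AD control libraries, and 844 ± 68.1 in Aβ-treated and 3025 ± 160 in Aβ control libraries (SD, n = 2 each). The Ogt cKO and Aβ control libraries thus formed the upper end, with overlapping ranges, and no other group reached them. Among the 14014 genes tested, Lgals1 ranked between 5 and 143 in level in the 12 libraries, where 1 is the highest. All 5 annexins shared this order at its top: Ogt cKO and Aβ control held the 2 highest group means for each of Anxa1, Anxa2, Anxa3, Anxa5 and Anxa6. The lowest group mean was cKO control for Lgals1, Anxa1, Anxa3 and Anxa6, and AD model for Anxa2 and Anxa5, where the AD model libraries overlapped with those of the cKO control for Anxa2 and Anxa5 alike. Lgals3, Lgals8 and Lgals9 were instead highest in Aβ-treated libraries, with AD model libraries next. For Lgals3 and Lgals9 the Aβ-treated, AD model and all remaining libraries did not overlap, while for Lgals8 the Aβ-treated and AD model ranges overlapped.

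**Figure D1:**
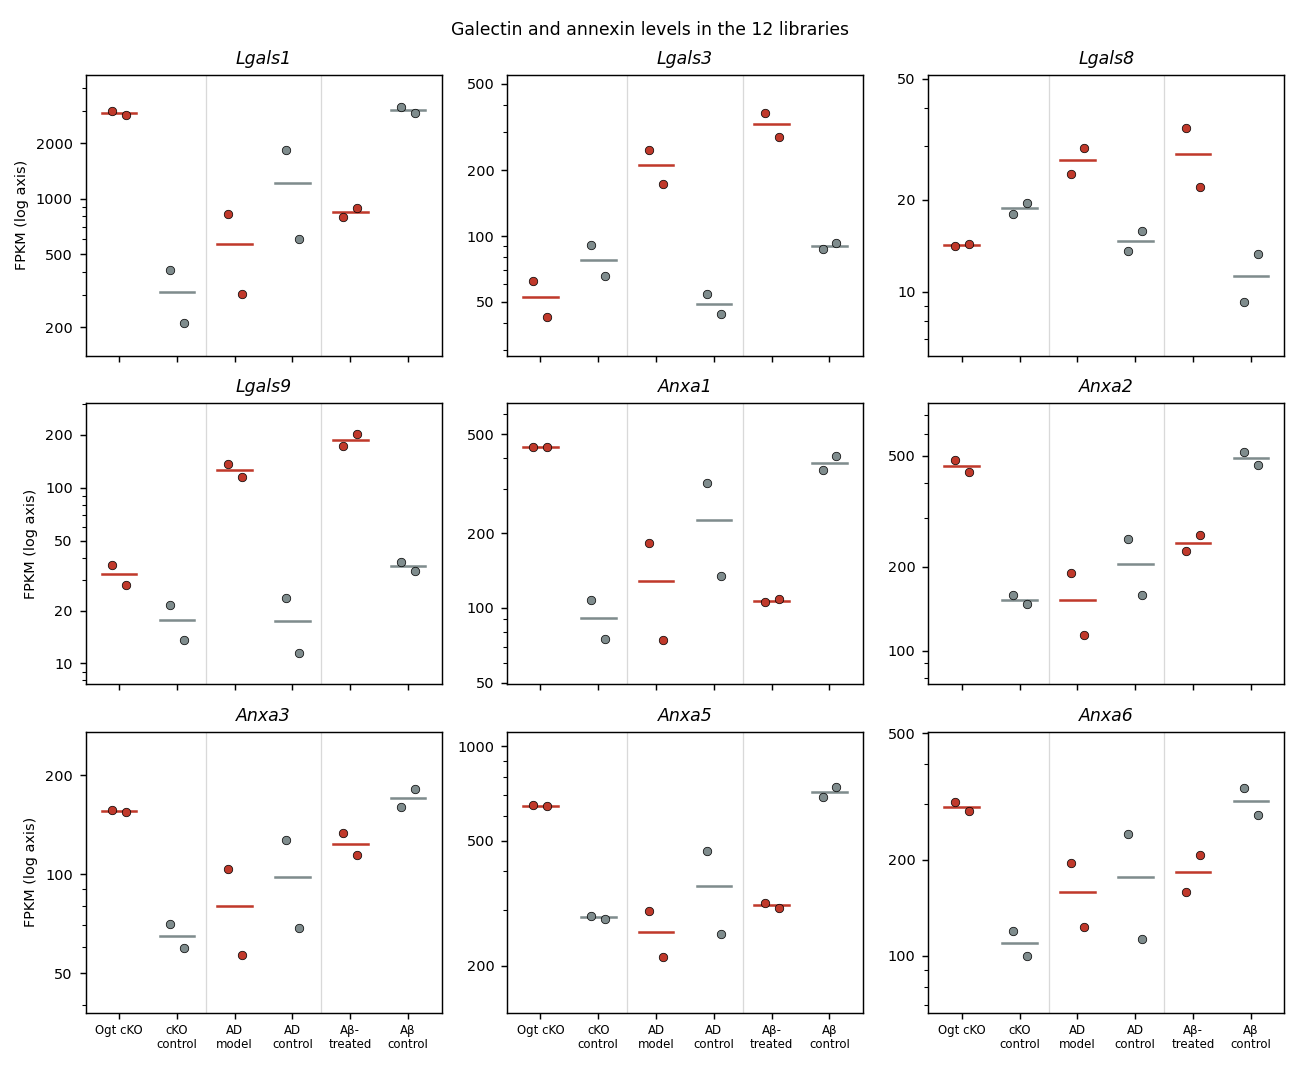
FPKM of each of the 9 genes in the 12 libraries, on a log axis, with 1 point per library, a line at each group mean and the 6 groups along the horizontal axis. Lgals1 and the annexins are highest in the Ogt cKO and Aβ control libraries, and Lgals3, Lgals8 and Lgals9 in the Aβ-treated and AD model libraries.

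Over the 12 libraries, the 15 pairs among Lgals1 and the 5 annexins had Pearson r of 0.843 to 0.961 on log2(FPKM + 1). The 3 pairs among Lgals3, Lgals8 and Lgals9 had r of 0.645 to 0.924, and the 18 pairs between the sets ran from -0.754 to 0.169. These sets were formed after the values were seen, the libraries share 6 groups and 3 experiments, and the correlations are descriptions with no test.

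The knockout comparison asks how a knockout of Ogt, whose enzyme transfers O-GlcNAc to proteins of nucleus and cytoplasm, goes with the RNA of these genes in adult astrocytes. Lgals1 and all 5 annexins rose in Ogt cKO libraries and none of the 9 genes fell. Lgals1 was at 2991 and 2830 FPKM in Ogt cKO libraries, against 411 and 211 FPKM in cKO control libraries. This was 9.35-fold, or 3.30 ± 0.58 (SE) on the log2(FPKM + 1) scale on which all changes are given (limma adjusted p = 0.0041). Both Ogt cKO libraries lay above both controls, as they did for every annexin.

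Anxa1, the formyl peptide receptor ligand, was at 445 and 442 FPKM in Ogt cKO libraries, against 108 and 74.8 FPKM in cKO control libraries, a log2 change of 2.29 ± 0.46 (SE; limma adjusted p = 0.0061). Anxa2, the S100A10 partner, was at 482 and 438 FPKM in Ogt cKO libraries, against 158 and 147 FPKM in cKO control libraries. Its log2 change was 1.59 ± 0.27 (SE; limma adjusted p = 0.0037). The change was thus largest for Lgals1 and next for Anxa1 and Anxa2, in an order whose standard errors overlap. Anxa3 was at 156 and 154 FPKM in Ogt cKO libraries, against 70.5 and 59.5 FPKM in cKO control libraries (log2 change 1.25). Anxa5, the phosphatidylserine binder used to stain dying cells, was at 649 and 643 FPKM in Ogt cKO libraries, against 288 and 281 FPKM in cKO control libraries (log2 change 1.18). Anxa6, the large annexin that joins a pair of annexin cores, was at 303 and 284 FPKM in Ogt cKO libraries, against 120 and 99.4 FPKM in cKO control libraries (log2 change 1.42). Limma adjusted p-values of Anxa3, Anxa5 and Anxa6 were 0.015, 0.010 and 0.013, and all 3 lost the call without either Ogt cKO library or without the second cKO control library (adjusted p = 0.053 to 0.095). Anxa1 lost it without the second cKO control library (log2 change 2.03, adjusted p = 0.052), and Anxa3 with quantile normalization (log2 change 0.84, adjusted p = 0.060).

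The other 3 galectins did not pass the test in this comparison. Lgals3 was at 62.4 and 42.4 FPKM in Ogt cKO libraries, against 90.6 and 65.3 FPKM in cKO control libraries (log2 change -0.57 ± 0.26 SE, limma adjusted p = 0.10). The lower cKO control library lay just above the higher Ogt cKO library. Lgals3 passed as lower when values were rescaled to total reads (log2 change -0.81, adjusted p = 0.027), with quantile normalization (-0.94, adjusted p = 0.021) and with limma-voom on recovered reads (-0.83, adjusted p = 0.022). Lgals8, a galectin with tandem lectin domains that marks damaged vesicles, was at 14.1 and 14.3 FPKM in Ogt cKO libraries, against 18.0 and 19.6 FPKM in cKO control libraries (log2 change -0.38, adjusted p = 0.19). Lgals9, another galectin of that tandem kind and a ligand of TIM-3, was at 36.5 and 27.9 FPKM in Ogt cKO libraries, against 21.6 and 13.6 FPKM in cKO control libraries (log2 change 0.86, adjusted p = 0.055). Fitted on the 4 libraries of this comparison alone, Lgals8 passed as lower (adjusted p = 0.011) and Lgals9 as higher (adjusted p = 0.041).

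In all, 6 of the 9 genes rose and none fell, with a median log2 change of 1.25, while over all genes tested 22.6% rose, 19.8% fell and the median log2 change was -0.0024. Rescaling to total reads moved the median of all genes to -0.19 and the share of higher calls among all calls to 35.5%, against 53.3% as tested. Median-of-ratios scaling gave every library the same factor, 1.011, so it could not show how the results depend on scaling. The 6 genes stayed higher when rescaled to total reads and with quantile normalization. With quantile normalization their log2 changes were smaller, at 2.42 for Lgals1, 1.72 for Anxa1, 0.95 for Anxa2, 0.84 for Anxa3, 0.53 for Anxa5 and 0.86 for Anxa6, and Anxa3 did not pass. Many markers of other cells moved with the group. Of 8 pericyte and smooth muscle markers tested, 5 rose, and the summed level of the whole list was 4028 to 4076 FPKM in Ogt cKO libraries, against 505 to 1011 FPKM in cKO control libraries. Of 13 astrocyte markers, 9 fell, with sums of 108 to 123 FPKM in Ogt cKO libraries, against 549 to 633 FPKM in cKO control libraries. Of 17 microglia and macrophage markers, 8 fell, with sums of 3267 to 4369 FPKM in Ogt cKO libraries, against 7770 to 9789 FPKM in cKO control libraries. Of 11 endothelial markers, 8 rose, with sums of 279 to 290 FPKM in Ogt cKO libraries, against 43.5 to 54.0 FPKM in cKO control libraries. Of 10 oligodendrocyte markers, 7 fell, with sums of 44.8 to 48.2 FPKM in Ogt cKO libraries, against 199 to 401 FPKM in cKO control libraries. Among 9 fibroblast markers tested, 1 rose and none fell, with sums of 1299 to 1332 FPKM in Ogt cKO libraries, against 790 to 912 FPKM in cKO control libraries. The mesothelial and epithelial list had 2 of its 10 genes tested and both rose, with sums over the whole list of 154 to 169 FPKM in Ogt cKO libraries, against 0.721 to 2.30 FPKM in cKO control libraries. The part of these cells in the galectin and annexin changes was not tested.

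The AD model comparison asks how the same genes stand in astrocytes of a mouse model of Alzheimer's disease. Lgals9, Lgals3 and Lgals8 rose in AD model libraries, and neither Lgals1 nor any of the 5 annexins passed the test. Lgals9 was at 137 and 115 FPKM in AD model libraries, against 23.5 and 11.5 FPKM in AD control libraries, which is 7.18-fold (log2 change 2.85 ± 0.32 SE, limma adjusted p = 5.3e-04). Lgals3 was at 249 and 173 FPKM in AD model libraries, against 54.0 and 43.9 FPKM in AD control libraries, which is 4.31-fold (log2 change 2.07 ± 0.26 SE, limma adjusted p = 9.7e-04). In both genes each AD model library lay above both control libraries. Lgals8 was at 24.4 and 29.5 FPKM in AD model libraries, against 13.5 and 15.8 FPKM in AD control libraries (log2 change 0.83 ± 0.22 SE, limma adjusted p = 0.034). The Lgals8 call was lost with no filter on low values (adjusted p = 0.074), without the second AD model library (0.12), without the first or the second AD control library (0.12 and 0.059) and with these 4 libraries fitted alone (0.15), where Lgals3 also missed the threshold (0.055).

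Lgals1 was at 828 and 305 FPKM in AD model libraries, against 1839 and 604 FPKM in AD control libraries, so the groups overlapped. On the log2 scale replicates differed more than the group means (log2 change -1.07 ± 0.58 SE, limma adjusted p = 0.27). Anxa1 behaved alike, at 182 and 74.2 FPKM in AD model libraries, against 317 and 135 FPKM in AD control libraries (log2 change -0.82, adjusted p = 0.28). Anxa2 was at 189 and 114 FPKM in AD model libraries, against 251 and 158 FPKM in AD control libraries (log2 change -0.44, adjusted p = 0.34). The first library of each group was the higher one for Lgals1 and all 5 annexins. Summed over the 5 annexins, levels were 969 and 581 FPKM in AD model libraries, against 1399 and 726 FPKM in AD control libraries. Anxa3, Anxa5 and Anxa6 had log2 changes of -0.28, -0.44 and -0.09 with overlapping groups. The size of these changes depended on which library was left out, while those of Lgals1, Anxa1 and Anxa2 stayed negative throughout. Without the second AD model library the log2 change was -0.35 for Lgals1, -0.18 for Anxa1, -0.07 for Anxa2 and -0.19 for Anxa5, and without the first AD control library it was -0.26, -0.21, -0.10 and 4.1e-04. Without the first AD model library these changes were -1.79, -1.47, -0.80 and -0.68, and without the second AD control library -1.87, -1.44, -0.77 and -0.87, of which only that of Anxa5 in the last case passed (adjusted p = 0.026). Anxa3 and Anxa6 changed sign, to 0.15 and 0.24 without the second AD model library and to 0.16 and 0.46 without the first AD control library.

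In all, 3 of the 9 genes rose and none fell, with a median log2 change of -0.28. Over all genes tested 9.80% rose, 7.27% fell and the median log2 change was -0.024. Of the 17 microglia and macrophage markers, 12 rose and none fell, and their summed level was 4035 to 6868 FPKM in AD model libraries, against 1240 to 1822 FPKM in AD control libraries. Of the 8 pericyte and smooth muscle markers, 6 fell, with sums of 210 to 759 FPKM in AD model libraries, against 1720 to 3843 FPKM in AD control libraries. Of the 13 astrocyte markers, 5 fell, with sums of 248 to 275 FPKM in AD model libraries, against 483 to 669 FPKM in AD control libraries. Of 9 fibroblast markers, 5 fell, with sums of 363 to 844 FPKM in AD model libraries, against 981 to 2054 FPKM in AD control libraries. Of the 10 oligodendrocyte markers, 6 rose and 2 fell, with sums of 417 to 492 FPKM in AD model libraries, against 251 to 258 FPKM in AD control libraries. None of the 11 endothelial markers passed, nor did either of the 2 mesothelial and epithelial markers tested. The part of these cells in the values of the galectins and annexins was not tested.

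The treatment comparison asks what added Aβ 1-42 does to the genes in wild-type astrocytes. Lgals3, Lgals8 and Lgals9 rose in Aβ-treated libraries, and Lgals1, Anxa1, Anxa2 and Anxa5 fell. Lgals9 was at 173 and 202 FPKM in Aβ-treated libraries, against 37.8 and 33.6 FPKM in Aβ control libraries, which is 5.25-fold (log2 change 2.36 ± 0.32 SE, limma adjusted p = 7.6e-04). Lgals3 was at 368 and 285 FPKM in Aβ-treated libraries, against 87.0 and 92.5 FPKM in Aβ control libraries, which is 3.64-fold (log2 change 1.84 ± 0.26 SE, limma adjusted p = 9.8e-04). Lgals8 was at 34.4 and 22.01 FPKM in Aβ-treated libraries, against 9.25 and 13.3 FPKM in Aβ control libraries (log2 change 1.24 ± 0.22 SE, limma adjusted p = 0.0031). In all 3 galectins each Aβ-treated library lay above both controls.

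Lgals1 was at 795 and 892 FPKM in Aβ-treated libraries, against 3138 and 2911 FPKM in Aβ control libraries. The level was 3.59-fold higher in controls (log2 change -1.84 ± 0.58 SE, limma adjusted p = 0.036). Anxa1 was at 106 and 108 FPKM in Aβ-treated libraries, against 358 and 409 FPKM in Aβ control libraries, 3.58-fold higher in controls (log2 change -1.83 ± 0.46 SE, limma adjusted p = 0.014). The groups were far apart beside their own spread for both genes, while the standard errors carry the spread of all 6 groups. Anxa2 was at 227 and 260 FPKM in Aβ-treated libraries, against 516 and 465 FPKM in Aβ control libraries (log2 change -1.01 ± 0.27 SE, limma adjusted p = 0.019). Anxa5 was at 316 and 306 FPKM in Aβ-treated libraries, against 689 and 743 FPKM in Aβ control libraries (log2 change -1.20 ± 0.27 SE, limma adjusted p = 0.0089). The call of Anxa5 held without any 1 of these 4 libraries, while those of Lgals1 (adjusted p = 0.10 to 0.15), Anxa1 (0.059 to 0.069) and Anxa2 (0.055 to 0.11) were lost without any 1 of them. Lgals1 and Anxa2 also missed the threshold with no filter on low values (adjusted p = 0.10 and 0.050).

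Anxa3 was at 134 and 115 FPKM in Aβ-treated libraries, against 160 and 181 FPKM in Aβ control libraries, and did not pass (log2 change -0.46, adjusted p = 0.29). Anxa6 was at 158 and 207 FPKM in Aβ-treated libraries, against 337 and 277 FPKM in Aβ control libraries, and did not pass either (log2 change -0.75, adjusted p = 0.12), but it did with these 4 libraries fitted alone (adjusted p = 0.029). In both genes each Aβ-treated library lay below both controls. Summed over the 5 annexins, levels were 941 and 996 FPKM in Aβ-treated libraries, against 2059 and 2075 FPKM in Aβ control libraries.

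In all, 3 of the 9 genes rose and 4 fell, with a median log2 change of -0.75. Over all genes tested 20.8% rose, 15.1% fell and the median log2 change was -0.037. With quantile normalization, which moved the median of all genes to -0.13, 47.4% of all calls were higher, against 58.0% as tested. Of the 17 microglia and macrophage markers, 8 rose and 2 fell, with sums of 5408 to 7251 FPKM in Aβ-treated libraries, against 2483 to 4117 FPKM in Aβ control libraries. Of the 8 pericyte and smooth muscle markers, 7 fell, with sums of 421 to 488 FPKM in Aβ-treated libraries, against 3602 to 4104 FPKM in Aβ control libraries. Both mesothelial and epithelial markers tested fell, with sums over the whole list of 16.1 to 19.4 FPKM in Aβ-treated libraries, against 131 to 199 FPKM in Aβ control libraries. Of the 11 endothelial markers, 8 rose, with sums of 831 to 1142 FPKM in Aβ-treated libraries, against 279 to 346 FPKM in Aβ control libraries. Of the 13 astrocyte markers 2 rose and 2 fell, with sums of 86.8 to 179 FPKM in Aβ-treated libraries, against 126 to 134 FPKM in Aβ control libraries. Of the 10 oligodendrocyte markers, 8 rose, with sums of 192 to 346 FPKM in Aβ-treated libraries, against 38.2 to 52.7 FPKM in Aβ control libraries. Of the 9 fibroblast markers, 1 rose and 4 fell, with sums of 317 to 523 FPKM in Aβ-treated libraries, against 881 to 1124 FPKM in Aβ control libraries. Their part in the result was not tested.

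**Figure D2:**
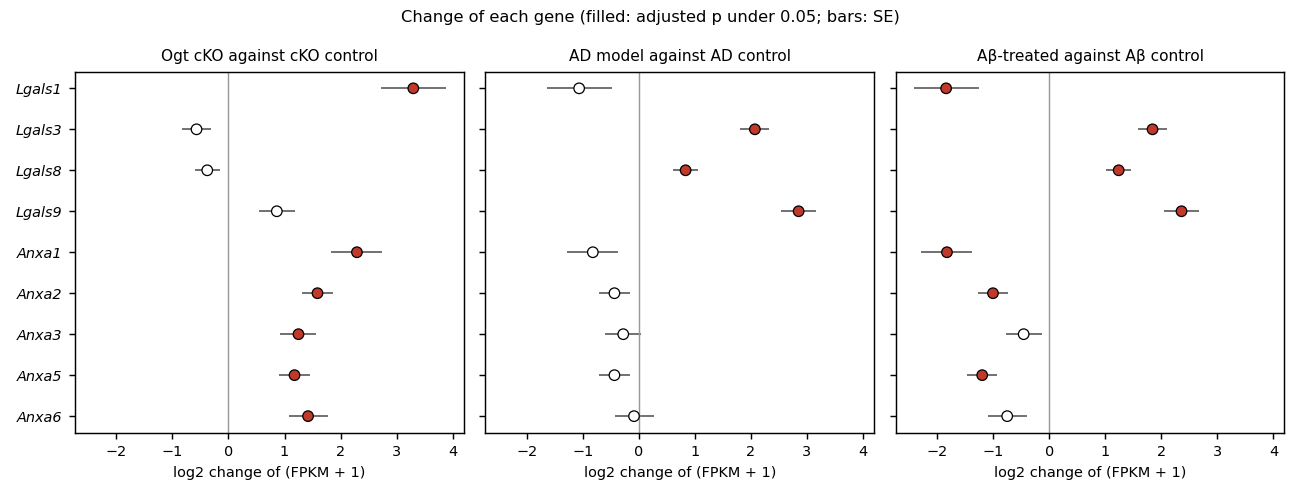
Change of each of the 9 genes on the log2(FPKM + 1) scale in the 3 comparisons, with bars for the standard error of the limma fit and filled points for an adjusted p under 0.05. Lgals1 and the 5 annexins lie right of 0 in Ogt cKO and left of 0 in the other comparisons, where Lgals3, Lgals8 and Lgals9 lie right of 0.

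The changes were set against each other in the same fit, which is possible because each experiment had its own control. Ogt cKO and AD model effects differed for 8 of the 9 genes, 5 with a higher and 3 with a lower effect in Ogt cKO, against 25.6% of all genes tested. The difference in log2 change, Ogt cKO minus AD model, was 4.37 ± 0.82 (SE) for Lgals1 (limma adjusted p = 0.0074) and -2.64 ± 0.37 (SE) for Lgals3 (limma adjusted p = 0.0021). Anxa6, at 1.51 ± 0.49 (SE), was the one that did not pass (limma adjusted p = 0.052). It did pass with a filter at 5 FPKM (adjusted p = 0.045), without the first AD model library (0.028) and without the second AD control library (0.0051). The differences of Lgals8, Lgals9, Anxa3 and Anxa5 lost the call without 1 or more single libraries, those of Lgals8, Anxa3 and Anxa5 also with no filter, and that of Anxa3 also when rescaled to total reads, with quantile normalization and with limma-voom, with adjusted p of 0.051 to 0.12 in all these cases.

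Ogt cKO and Aβ treatment effects differed for all 9 genes, 6 with a higher and 3 with a lower effect in Ogt cKO, against 52.3% of all genes tested. The difference, Ogt cKO minus Aβ treatment, was 5.14 ± 0.82 (SE) for Lgals1, 4.12 ± 0.64 for Anxa1 and -2.41 ± 0.37 for Lgals3, with limma adjusted p = 0.0014, 0.0012 and 0.0011. That of Lgals9, -1.50 ± 0.45 (SE; limma adjusted p = 0.021), lost the call without the second Ogt cKO, first cKO control, second Aβ-treated or second Aβ control library and with no filter (adjusted p = 0.053 to 0.078), and that of Anxa3, 1.71, with quantile normalization (adjusted p = 0.062). AD model and Aβ treatment effects differed for 0 of the 9 genes by limma, and 0 passed at an unadjusted p under 0.05, while 6.14% of all genes passed the adjusted threshold. Limma-voom on recovered reads also called 0. The difference, AD model minus Aβ treatment, was largest for Anxa1, at 1.01 ± 0.64 (SE; limma adjusted p = 0.39), and the standard errors of the 9 differences were 0.32 to 0.82. Without the first AD control library that of Anxa5 passed, at 1.20 (adjusted p = 0.030).

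The balance between galectin-3 and galectin-1 RNA within a library does not depend on scaling between libraries. Lgals3 over Lgals1, as a ratio of FPKM, was 0.0209 and 0.0150 in Ogt cKO libraries, against 0.220 and 0.309 in cKO control libraries. It was 0.300 and 0.569 in AD model libraries, against 0.0294 and 0.0727 in AD control libraries, and 0.463 and 0.320 in Aβ-treated libraries, against 0.0277 and 0.0318 in Aβ control libraries. The ratio was thus low in Ogt cKO libraries and high in AD model and Aβ-treated libraries relative to each control, with no overlap in any of the 3 experiments. It restates the levels of both genes given above and is no separate result. In Ogt cKO, Lgals3 itself did not pass (limma adjusted p = 0.10), while Lgals1 rose 9.35-fold. The cKO control libraries stood with the AD model and Aβ-treated libraries rather than with the other controls. Controls differed in age and in genotype between experiments, and these cannot be told apart from other differences between the experiments. The ratio of S100a10 to Anxa2 had a narrower span, 0.422 to 0.671 over the 12 libraries, but also differed between groups. It was 0.605 in both Ogt cKO libraries, against 0.514 and 0.513 in cKO control libraries. With Aβ it was 0.468 and 0.422, against 0.598 and 0.671 in Aβ control libraries. In the AD experiment the groups overlapped, at 0.557 and 0.504 in AD model and 0.578 and 0.432 in AD control libraries.

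**Figure D3:**
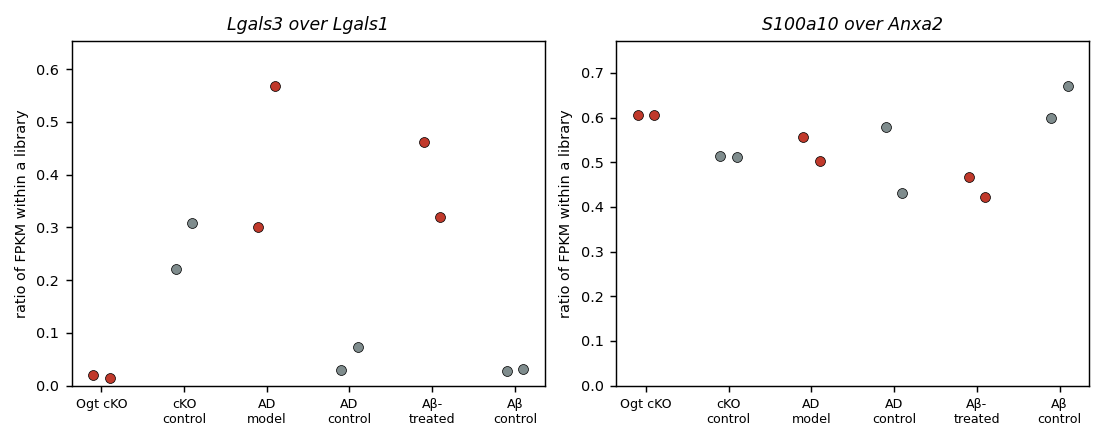
Ratio of FPKM within each library, Lgals3 over Lgals1 on the left and S100a10 over Anxa2 on the right, 1 point per library by group, with axes that start at 0. Lgals3 over Lgals1 spans 0.0150 to 0.569, and S100a10 over Anxa2 spans 0.422 to 0.671.

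Other members of the families moved in part the same way. Anxa8 was at 12.1 and 7.73 FPKM in Ogt cKO libraries, against 0.226 and 0.181 FPKM in cKO control libraries, and rose (log2 change 3.15 ± 0.44 SE, limma adjusted p = 0.0020). The ratio of means was 48.9, and since the controls lie under 1 FPKM the log2 change depends on the pseudocount, with 5.02 at a pseudocount of 0.1 (adjusted p = 0.0026). It was at 1.48 and 1.22 FPKM in Aβ-treated libraries, against 13.7 and 13.4 FPKM in Aβ control libraries, and fell (log2 change -2.64 ± 0.44 SE, limma adjusted p = 0.0022). These are the directions of Anxa1 and Anxa2. In the AD model its log2 change of -0.62 did not pass (adjusted p = 0.41), but it passed as lower without the second AD control library (-1.33, adjusted p = 0.047). Anxa4, an annexin of secretory and epithelial cells, moved as Lgals3 did: it rose to 16.0 and 20.5 FPKM in AD model libraries, against 7.46 and 6.66 FPKM in AD control libraries (log2 change 1.25, limma adjusted p = 7.6e-04), a call lost with those 4 libraries fitted alone (adjusted p = 0.078). In the treatment comparison Anxa4 rose to 22.3 and 21.8 FPKM in Aβ-treated libraries, against 9.45 and 8.16 FPKM in Aβ control libraries (log2 change 1.23, limma adjusted p = 4.3e-04). In the knockout comparison Anxa4 fell, with a log2 change of -0.56, and Anxa11 with one of -0.60 (limma adjusted p = 0.017 and 0.013). Both lost the call without the second Ogt cKO library or without either cKO control library (adjusted p = 0.063 to 0.12).

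Of the 7 other annexins listed, 5 were tested: 1 rose and 2 fell in Ogt cKO, 1 rose in the AD model, and 1 rose and 1 fell with Aβ. Anxa7 and Anxa9 passed in no comparison as tested, though Anxa7 passed as higher in Ogt cKO with those 4 libraries fitted alone (log2 change 0.20, adjusted p = 0.030), and Anxa10 and Anxa13 were too low to test. Of the 6 other galectins listed, 3 were tested. Lgals4 fell in Ogt cKO, at a mean of 0.244 FPKM, against 1.66 FPKM in cKO control libraries (limma adjusted p = 0.026), a call lost without any 1 of the 4 libraries and with no filter. Lgals2 and Lgalsl passed in no comparison as tested, though Lgalsl passed as lower in the AD model with quantile normalization (adjusted p = 0.041) and without the first AD model library (0.029), and Lgals7 and Lgals12 were too low to test.

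Among partners and receptors of annexins, 11 of 18 tested rose and 2 fell in Ogt cKO, 3 rose and 1 fell in the AD model, and 5 rose and 6 fell with Aβ, with median log2 changes of 1.46, -0.10 and -0.15. Over all genes tested, 22.6% rose and 19.8% fell in Ogt cKO, 9.80% and 7.27% in the AD model, and 20.8% and 15.1% with Aβ, and the lists that follow are read against the same shares. S100a10, the S100 protein bound by annexin A2, was at 291 and 265 FPKM in Ogt cKO libraries, against 81.1 and 75.1 FPKM in cKO control libraries, and rose (log2 change 1.82, limma adjusted p = 0.0053). It fell to 106 and 110 FPKM in Aβ-treated libraries, against 309 and 312 FPKM in Aβ control libraries (log2 change -1.51, limma adjusted p = 0.0097), a call lost without the first Aβ-treated or the first Aβ control library (adjusted p = 0.055 for both). S100a11, a partner of annexin A1, had log2 changes of 1.50 in Ogt cKO and -0.99 with Aβ (limma adjusted p = 0.0040 and 0.018); the second was lost with no filter on low values and without any 1 library (adjusted p = 0.053 to 0.11). Neither passed in the AD model as tested, where their log2 changes were -0.35 and -0.75, though S100a11 passed with limma-voom on recovered reads (adjusted p = 0.050), without the first AD model library (0.029) and without the second AD control library (0.048).

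The formyl peptide receptors, which annexin A1 binds, rose in all 3 experiments. Fpr1 was at 28.0 and 25.5 FPKM in Ogt cKO libraries, against 1.60 and 0.622 FPKM in cKO control libraries (log2 change 3.76 ± 0.39 SE, limma adjusted p = 7.4e-04). It was at 59.0 and 137 FPKM in AD model libraries, against 0 and 0.231 FPKM in AD control libraries, and at 94.3 and 55.4 FPKM in Aβ-treated libraries, against 0.357 and 0.391 FPKM in Aβ control libraries (limma adjusted p = 1.8e-05 and 2.8e-05). The groups did not overlap in any experiment, and with Aβ the receptor rose where Anxa1 fell. Fpr2 was at 5.49 and 4.23 FPKM in Ogt cKO libraries, against 0.246 and 0 FPKM in cKO control libraries. It was at 9.30 and 7.93 FPKM in AD model libraries and is listed at 0 in both AD control libraries. With Aβ it was at 16.1 and 7.86 FPKM in Aβ-treated libraries, against 0.0913 and 0.0888 FPKM in Aβ control libraries, and it passed in all 3 comparisons (limma adjusted p = 0.0011, 1.1e-04 and 4.8e-05). Controls of both receptors are low, so the size of their log2 changes depends on the pseudocount and other settings. Over all alternatives that of Fpr1 was 3.41 to 4.60 in Ogt cKO, 5.76 to 10.2 in the AD model and 5.36 to 7.58 with Aβ. That of Fpr2 was 2.23 to 5.89, 3.16 to 8.67 and 3.02 to 6.71. Both receptors are genes of myeloid cells, whose marker sums were lower in Ogt cKO and higher in AD model and Aβ-treated libraries than in their controls, as given above. S100a8, the one neutrophil marker of 8 that was tested, rose in all 3 comparisons, to 5.86 and 3.23 FPKM in Ogt cKO libraries, against 0.153 and 0.140 FPKM in cKO control libraries, to 3.10 and 3.64 FPKM in AD model libraries, against 0.0872 and 0 FPKM in AD control libraries, and to 9.87 and 11.1 FPKM in Aβ-treated libraries, against 1.87 and 0.830 FPKM in Aβ control libraries. The part of these cells was not tested.

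**Figure D4:**
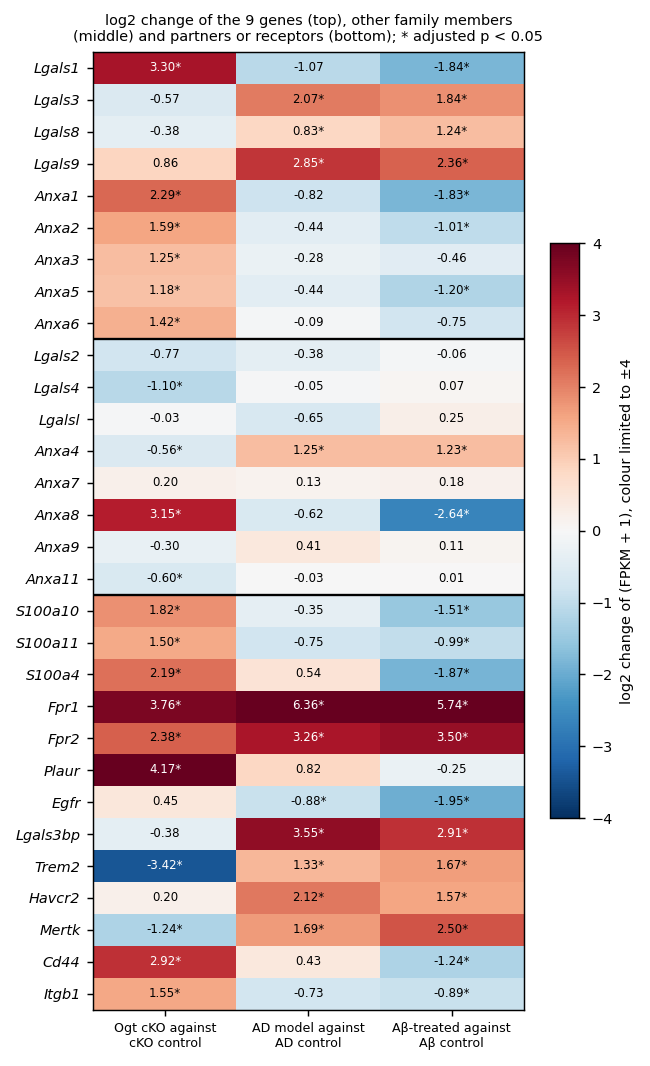
Heat map of the log2 change of (FPKM + 1) of the 9 genes, of other family members and of partners or receptors in the 3 comparisons, with the value in each cell, an asterisk for limma adjusted p under 0.05 and colours limited at 4 in either direction. Fpr1 and Fpr2 are red in all 3 columns, Anxa8 follows Anxa1, and Lgals3bp follows Lgals3. Controls of Fpr1 and Fpr2 are at most 1.60 FPKM, and Fpr2 is listed at 0 in both AD control libraries, so these values depend on the pseudocount.

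Among ligands, receptors and partners of galectins, 7 of 20 tested rose and 4 fell in Ogt cKO, 8 rose and none fell in the AD model, and 10 rose and 3 fell with Aβ, with median log2 changes of 0.20, 0.49 and 0.69. The share that fell in Ogt cKO was close to the 19.8% of all genes. Lgals3bp, the secreted galectin-3 binding protein, was at 353 and 402 FPKM in AD model libraries, against 33.4 and 29.4 FPKM in AD control libraries (log2 change 3.55 ± 0.17 SE, limma adjusted p = 5.4e-06). It was at 374 and 353 FPKM in Aβ-treated libraries, against 45.2 and 49.6 FPKM in Aβ control libraries (log2 change 2.91 ± 0.17 SE, limma adjusted p = 1.2e-05). In Ogt cKO it did not pass, with a log2 change of -0.38 (adjusted p = 0.097), but did as lower when rescaled to total reads, with quantile normalization or with limma-voom (adjusted p = 0.011 to 0.014). Havcr2, which encodes TIM-3, a reported receptor of galectin-9, rose in the AD model and with Aβ, with log2 changes of 2.12 and 1.57 (limma adjusted p = 4.5e-04 and 0.0011). In Ogt cKO its log2 change was 0.20 (adjusted p = 0.50).

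Trem2, a microglial receptor reported to bind galectin-3, was at 6.75 and 3.97 FPKM in Ogt cKO libraries, against 65.1 and 66.2 FPKM in cKO control libraries, and fell (log2 change -3.42 ± 0.39 SE, limma adjusted p = 0.0010). It rose in the AD model and with Aβ, with log2 changes of 1.33 and 1.67 (limma adjusted p = 0.047 and 0.010). The AD call was lost under 7 of the alternatives, with adjusted p up to 0.26, and the Aβ call without the first Aβ-treated or first Aβ control library (adjusted p = 0.079 and 0.084). Mertk, a phagocytic receptor tyrosine kinase, fell in Ogt cKO with a log2 change of -1.24 and rose in the AD model and with Aβ with changes of 1.69 and 2.50 (limma adjusted p = 0.0011, 1.2e-04 and 1.1e-05). Cd44, a hyaluronan receptor that carries galectin ligands, rose in Ogt cKO and fell with Aβ, with log2 changes of 2.92 and -1.24 (limma adjusted p = 0.0020 and 0.042). In the AD model its change of 0.43 did not pass (adjusted p = 0.55), where that of Lgals1 was -1.07, and Cd44 passed as higher without the first AD control library (1.23, adjusted p = 0.0044). Its Aβ call was lost with no filter, with quantile normalization and without any 1 library (adjusted p = 0.058 to 0.16).

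Galectin ligands are built by enzymes of N-glycan branching and lactosamine synthesis. Of 15 such genes, all tested, 1 rose and 7 fell in Ogt cKO, with a median log2 change of -0.31. In the AD model 3 rose and 1 fell (median 0.05), and with Aβ 3 rose and 2 fell (median 0.16), close to the shares of all genes (20.8% and 15.1%). Mgat5, which makes the branch that carries long lactosamine chains, averaged 10.3 FPKM in Ogt cKO libraries, against 22.4 FPKM in cKO control libraries (log2 change -1.04 ± 0.12 SE, limma adjusted p = 0.0011). Man2a2, an alpha-mannosidase of the same route, and St6gal1, whose alpha-2,6 sialic acid blocks binding of galectin-1, had log2 changes of -1.27 and -1.19 (limma adjusted p = 3.8e-04 and 0.0016). None of these 3 passed in the AD model or with Aβ as tested; Man2a2 passed as lower in the AD model with quantile normalization (adjusted p = 0.038). Mgat3, which adds the bisecting N-acetylglucosamine, fell in all 3 comparisons, with log2 changes of -1.39, -1.46 and -0.84 (limma adjusted p = 7.4e-04, 2.9e-04 and 0.0025), though its AD call was lost with those 4 libraries fitted alone (adjusted p = 0.050).

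Of 20 tested genes of membrane repair and of the response to lysosome damage, 5 rose and 2 fell in Ogt cKO, 1 rose and 2 fell in the AD model, and 4 rose and 4 fell with Aβ, with median log2 changes of 0.32, -0.10 and -0.21. The share that rose was close to that of all genes in Ogt cKO (22.6%) and with Aβ (20.8%), so these counts say nothing particular of the list. Capn2, a calpain used in repair, had log2 changes of 1.21 in Ogt cKO, -0.92 in the AD model and -1.36 with Aβ (limma adjusted p = 0.0084, 0.044 and 0.0044). Cavin1, a coat protein of caveolae, had changes of 1.02, -1.20 and -1.69 (limma adjusted p = 0.019, 0.018 and 0.0020). Their calls in Ogt cKO and in the AD model were each lost under 2 or more alternatives, left-out libraries among them (adjusted p = 0.050 to 0.40), the highest for Cavin1 in Ogt cKO with quantile normalization (log2 change 0.30). Tax1bp1, an autophagy receptor, had changes of -0.96 in Ogt cKO and 1.62 with Aβ (limma adjusted p = 0.0096 and 7.4e-04), the first of which was lost without the first Ogt cKO library or either cKO control library (adjusted p = 0.052 to 0.075).

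Among 8548 protein-coding genes whose highest group mean reached 5 FPKM, the 3 whose log2(FPKM + 1) followed each of the 9 genes most closely over the 12 libraries were listed by Pearson r. For Lgals1 these were Galnt18 (r = 0.992), Mrm3 and Ak1, for Anxa1 Bmper (r = 0.979), Khdrbs3 and Bok, and for Anxa2 Prdx2 (r = 0.992), S100a6 and Glrx3. For Anxa3 they were Emp1 (r = 0.983), Baiap2l1 and Tbc1d2, for Anxa5 Ergic1 (r = 0.992), Pusl1 and S100a10, and for Anxa6 Rack1 (r = 0.990), Traf4 and Rpl27a. Genes of the S100 family thus stood among the 3 for Anxa2 and Anxa5. For Lgals3 they were Selplg (r = 0.991), Adssl1 and Il21r, for Lgals8 Lpin2 (r = 0.978), Fyb and Casp1, and for Lgals9 Daxx (r = 0.990), Tnfrsf26 and Litaf. Selplg, Fyb and Casp1 are genes of blood and myeloid cells, but they are only part of these lists, and none of them is among the 3 for Lgals9. The 12 points share 6 groups, and no test was made.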

How the data were processed

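RNA-seq libraries of cultured adult mouse astrocytes, 12 in all and 2 in each of 6 groups, were analysed from 1 table of 54532 genes. The authors deposited FPKM values and gene lengths; the build was mm10 per the submitters' processing notes, and aligner, counter and annotation were not given in the sources used here. Groups were taken from the labels. The library size behind the FPKM was not the number of reads assigned to genes. Those reads over that size ran from 0.886 in the second AD control library to 1.10 in the first Ogt cKO library. The FPKM gave whole reads within 0.1 read for 100% of values, with 16418852 to 18705309 reads per library, and 3 reads on a gene of 1 kb came to 0.145 to 0.191 FPKM (counting error only). The 14014 genes that reached 1 FPKM in at least 2 libraries were tested on log2(FPKM + 1), pseudocount 1, with limma 3.58.1 in R 4.3.3: 1 mean per group, an intensity trend, 6 residual degrees of freedom, two-sided moderated tests and Benjamini-Hochberg adjustment over all genes tested at 0.05. Differences between experiments were contrasts of the same fit. The script was tested on simulated data.

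The 9 genes and all gene lists were chosen with earlier results of these data known. Genes named beside them were the tested members of the families, fixed partners and receptors, Ogt, up to 4 genes per list and comparison with the smallest p, and the 3 most correlated genes per member; some of these are left out for space. Cell type markers came from fixed lists, and their sums cover all listed genes, tested or not. Lists are described by counts and medians, with no set test. Alternatives were other pseudocounts and filters, scalings, limma-voom on the recovered reads, a replicate block, the 4 libraries of a comparison alone and each library left out in turn. Promoters came from RefSeq, GRCm38.p6.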

Additional observations from a re-analysis of the deposited data

Results flagged for a closer look

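The effects of 2 experiments on the same gene differed, by the limma contrast of the difference itself, in 17 of the 27 differences tested. None of the 17 was of AD model minus Aβ treatment, so all of them share the Ogt cKO and cKO control libraries. Over all genes tested, 25.6% passed for Ogt cKO minus AD model and 52.3% for Ogt cKO minus Aβ treatment. For AD model minus Aβ treatment the share was 6.14%. For Ogt cKO minus AD model the differences in log2 change were 4.37 for Lgals1, 3.12 for Anxa1, 2.03 for Anxa2, 1.62 for Anxa5 and 1.53 for Anxa3, and -2.64 for Lgals3, -1.99 for Lgals9 and -1.21 for Lgals8. For Ogt cKO minus Aβ treatment they were 5.14 for Lgals1, 4.12 for Anxa1, 2.59 for Anxa2, 2.38 for Anxa5, 2.17 for Anxa6 and 1.71 for Anxa3, and -2.41 for Lgals3, -1.62 for Lgals8 and -1.50 for Lgals9. Adjusted p-values of these differences ran from 9.8e-04 to 0.038. With 2 libraries in each group, no single library could be tested as standing apart from its group.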

How the results depend on the processing

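None of the 837 values of the 9 genes recomputed under alternatives changed direction among those called: 755 kept their side of the threshold, 63 lost the call and 19 gained it. For other named genes the counts were 1597, 105 and 44 of 1746. These counts include median-of-ratios scaling, whose factor was the same, 1.011, in every library, so calls kept under it carry no weight. Over all genes tested, leaving out 1 library moved the genes called in Ogt cKO to 1857 to 3213 (5934 with all libraries) and the called genes among the 9 to 2 to 6 (6 with all). In the AD model the ranges were 2173 to 2421 (2392) and 2 to 3 (3), with Aβ 2674 to 4033 (5025) and 4 (7), for Ogt cKO minus AD model 1525 to 5280 (3593) and 4 to 9 (8), and for AD model minus Aβ treatment 195 to 1621 (861) and 0 to 1 (0). Where a group keeps 1 library, that library is assumed to vary like the others. The 4 libraries of the AD comparison fitted alone called 278 genes and 1 of the 9. With no filter on low values, Ogt cKO minus AD model called 5 of the 9, and AD model minus Aβ treatment called 540 genes, against 531 with a filter at 5 FPKM. Replicate numbers are shared by the groups, but nothing says what they mean, and same-numbered libraries deviated together with r = 0.0332 in the Ogt cKO, 0.551 in the AD and -0.169 in the Aβ experiment over 14014 genes. A replicate block, nested in experiment, called 6789 genes in Ogt cKO, 3058 in the AD model and 6098 with Aβ, and 8, 4 and 9 of the 9 genes; for AD model minus Aβ treatment it called 1 of the 9 (Anxa1). With it, Lgals1 and Anxa1 passed as lower in the AD model (adjusted p = 0.022 and 0.014), as did S100a11 (0.020), and Lgals8 was lost there (0.052). The crossed pairing of the Aβ experiment, chosen after seeing the data, called 6708 genes. The 2 libraries per group, the unknown origin of replicates and the mixed cell markers limit these comparisons more than depth does.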
